A study of Mus musculus with 11 samples.

Results

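Leukocyte adhesion molecules of endothelium are described here as 9 genes, *Icam1*, *Icam2*, *Vcam1*, *Sele*, *Selp*, *Selplg*, *Pecam1*, *Ackr1* and *Mcam*, out of 32285 genes in the count matrices. They were chosen by name, with earlier results of these data known. Each matched 1 row, and none of them served to cluster or name cells. The libraries were 10x Genomics 3′ single-cell RNA libraries of right brain tissue, 1 per mouse. The sham + WT group had replicates 1, 2 and 3, the sham + Lrg1-/- group replicates 1, 2 and 5, the MCAO/R + WT group only replicates 1 and 2, and the MCAO/R + Lrg1-/- group replicates 1, 2 and 5 again. MCAO/R stands for occlusion of the middle cerebral artery by a filament for 1 h followed by reperfusion. The methods list several lengths of reperfusion without tying one to the sequenced mice. In sham mice the internal carotid artery stayed free of the filament, and surgery was otherwise alike. WT mice were male C57BL/6 mice of 8 to 10 weeks from Yangzhou University. Lrg1-/- mice came from Cyagen, lack *Lrg1* in every tissue (a deletion from exon 1 to the stop codon in exon 2), were backcrossed to C57BL/6N for 4 generations, and are given as 3 months old. Genotype therefore cannot be told apart from age, source and substrain. The sex of the Lrg1-/- mice is not stated. The sex-linked transcripts *Xist* and *Ddx3y* set MCAO/R + Lrg1-/- replicates 1 and 2 apart, as given below. Comparisons that use this group therefore cannot be fully told apart from sex.

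Leukocytes leave the blood mostly through venules. Selectins on the vessel wall, E-selectin (*Sele*) and P-selectin (*Selp*), slow the cells by binding PSGL-1 (*Selplg*) on leukocytes. Integrins of the leukocyte then hold to ICAM-1, ICAM-2 and VCAM-1, and PECAM-1 at the junctions takes part in the passage between endothelial cells. ACKR1 is an atypical chemokine receptor of venules, which binds and carries chemokines without classical signalling. MCAM (CD146) is an adhesion molecule of the immunoglobulin superfamily found on smooth muscle, pericytes and endothelium. In the healthy brain few leukocytes cross, and cytokines that act through NF-κB induce *Sele*, *Icam1* and *Vcam1* in endothelium.

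All 9 genes are protein coding in the GENCODE M21 annotation of GRCm38, where *Sele* (chr1:164048234-164057677, + strand) and *Selp* (chr1:164115264-164150026, + strand) are neighbours with 57587 bp between them. *Icam1* lies at chr9:21015985-21028817 (+), *Mcam* at chr9:44134469-44142727 (+), *Vcam1* at chr3:116109949-116129688 (−), *Selplg* at chr5:113818536-113832644 (−), *Icam2* at chr11:106377656-106388075 (−), *Pecam1* at chr11:106654217-106750628 (−), and *Ackr1* at chr1:173331886-173333750 (−). RefSeq promoters of the same build (GRCm38.p6) matched 5 of the 9 genes, *Icam1*, *Sele*, *Selp*, *Ackr1* and *Mcam*. The windows of *Ackr1* and *Mcam* hold the GENCODE start and so lie in part inside the gene. The 250 bases before the RefSeq start are shown for the other 3, which were all highest in venous endothelium. They span chr9:21015690-21015939 for *Icam1*, chr1:164047984-164048233 for *Sele* and chr1:164115014-164115263 for *Selp*, on the + strand. Capitals mark matches to the motifs searched.

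Icam1: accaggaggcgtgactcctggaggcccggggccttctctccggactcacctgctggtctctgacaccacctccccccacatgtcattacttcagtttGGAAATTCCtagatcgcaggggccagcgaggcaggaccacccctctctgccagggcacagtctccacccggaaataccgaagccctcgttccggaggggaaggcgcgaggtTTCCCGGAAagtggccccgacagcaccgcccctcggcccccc
Sele: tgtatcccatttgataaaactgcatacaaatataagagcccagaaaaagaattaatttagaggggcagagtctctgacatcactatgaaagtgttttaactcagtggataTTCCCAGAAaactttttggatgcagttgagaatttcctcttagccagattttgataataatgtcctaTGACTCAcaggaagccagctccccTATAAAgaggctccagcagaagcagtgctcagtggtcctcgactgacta
Selp: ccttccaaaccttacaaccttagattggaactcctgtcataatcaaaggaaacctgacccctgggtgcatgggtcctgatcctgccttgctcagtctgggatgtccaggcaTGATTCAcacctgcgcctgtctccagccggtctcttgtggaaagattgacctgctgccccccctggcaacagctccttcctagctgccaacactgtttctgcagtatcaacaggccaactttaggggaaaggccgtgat

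Both strands were searched for GGAAANTCC (an NF-κB form), the longer NF-κB consensus, TGANTCA (AP-1), TGACGTCA (CRE), TTCNNNGAA (STAT) and TATAAA. In *Icam1*, GGAAATTCC lay 153 to 145 bases before the start and TTCCCGGAA 42 to 34 bases before it. *Sele* held TTCCCAGAA 140 to 132, TGACTCA 73 to 67 and TATAAA 49 to 44 bases before the start. *Selp* held TGATTCA 139 to 133 bases before the start. Of 32851 promoters, 1.07% held GGAAANTCC, 7.25% the NF-κB consensus, 6.75% TGANTCA, 1.55% TGACGTCA, 7.02% TTCNNNGAA and 12.4% TATAAA. A match describes letters and is no proof of a site.

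After filters, 125149 of 155804 barcodes were kept, and 18331 of these cells were endothelial. Another 24574 kept cells had no named type and were left out. They include clusters first grouped with endothelium but mixed with other cells. The one mixed with smooth muscle held 34 sham + WT, 1244 sham + Lrg1-/-, 3 MCAO/R + WT and 272 MCAO/R + Lrg1-/- cells. The one mixed with microglia held 935, 330, 121 and 748 in the same order. The part of this unequal loss in the results was not tested. Total UMIs per library ranged from 37159497 to 171813031, and pairs of libraries shared at most 1.24% of the barcodes of the smaller one. The 10 endothelial markers were all detected in the endothelium of every library and summed to 15194 to 19680 CPM (CPM, UMIs per 1e+06 UMIs of the class in that library, the unit of all levels here). *Lrg1*, the deleted gene, had 0 UMIs in the endothelium of all 6 Lrg1-/- libraries, 7.28 to 24.3 CPM in the sham + WT group, and 431 and 488 CPM in the MCAO/R + WT group. Among MCAO/R + Lrg1-/- libraries, numbers 1 and 2 held *Xist* (362 and 469 CPM) and almost no *Ddx3y* (0.393 and 0.473 CPM), unlike the other 9 libraries, so called results of the 9 genes that rest on them, other than *Ackr1* in arterial cells, and the gene lists of pooled endothelium were also computed without both. Transcripts of other cells were higher in Lrg1-/- endothelium. The 4 haemoglobin genes summed to 22438 to 43504 CPM after sham and 18991 to 29500 CPM after MCAO/R, against 320 to 691 CPM over the 5 WT libraries, and choroid plexus and microglial markers were higher as well (4429 to 5689 and 1180 to 1401 CPM in the sham + Lrg1-/- group, 320 to 623 and 710 to 811 CPM in the sham + WT group).

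Across endothelial classes, *Icam1*, *Vcam1*, *Sele*, *Selp* and *Ackr1* were highest in venous cells, *Icam2* in arterial cells, and *Pecam1*, *Selplg* and *Mcam* in the fenestrated cells of the choroid plexus. Microglia carry more *Selplg*, and a second set of microglial markers was read here. In fenestrated cells it summed to 924 to 1159 CPM in sham + WT, 600 in MCAO/R + WT and 489 in MCAO/R + Lrg1-/- libraries. In the other classes it summed to 291 to 436, 187 to 332 and 258 to 839 CPM in the same order, and its part in *Selplg* was not tested. Classes were named from markers that did not include the 9 genes, and clusters were made from the same cells, so these levels are a description without a test. *Sele* averaged 74.2 ± 70.0 CPM (SD, n = 11 libraries) in venous cells, 13.8 ± 13.7 (n = 5) in fenestrated cells, 6.35 ± 8.99 in endothelial cells with no class, 0.554 ± 0.969 in capillary and 0.159 ± 0.279 in arterial cells. *Selp* averaged 66.6 ± 33.9 CPM in venous cells and 5.13 ± 6.11 CPM or less in each other class. *Ackr1* averaged 621 ± 832 CPM in venous cells, 95.2 ± 147 in cells with no class, 17.6 ± 31.3 in fenestrated, 4.77 ± 8.96 in capillary and 3.83 ± 6.31 in arterial cells. In all 3 genes the order below venous cells lay within the spread over libraries.

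The integrin ligands were graded differently along the vessel. *Icam1* averaged 1341 ± 311 CPM in venous cells, 248 ± 129 in fenestrated, 244 ± 141 in cells with no class, 201 ± 71.4 in capillary and 132 ± 58.8 in arterial cells, and the last 4 lay within their spread. *Vcam1* fell from 623 ± 103 CPM in venous cells to 272 ± 111 in arterial and 21.3 ± 8.51 in capillary cells. The last step was wider than the spread. *Icam2*, a ligand that resting endothelium carries, ranged from 156 ± 27.0 CPM in capillary to 274 ± 67.6 CPM in arterial cells. *Pecam1* ranged from 704 ± 159 CPM in venous to 1336 ± 186 CPM in fenestrated cells.

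Outside endothelium, *Selplg* was highest in microglia and leukocytes, with 691 ± 324 CPM in microglia (n = 11), 439 ± 106 in neutrophils (n = 4) and 309 ± 79.2 in T cells (n = 10), against 21.6 ± 8.72 CPM in venous endothelium. *Mcam* was highest in vascular smooth muscle cells (484 ± 71.4 CPM) and pericytes (175 ± 43.7 CPM), followed by fenestrated endothelium (105 ± 21.4 CPM, n = 5) and oligodendrocytes (89.0 ± 31.8 CPM), while arterial, capillary and venous endothelium held 35.8 ± 15.6, 12.3 ± 11.1 and 11.0 ± 10.6 CPM. *Vcam1* was also present in fibroblasts (414 ± 245 CPM, n = 5) and border-associated macrophages (328 ± 92.1 CPM).

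**Figure D1:**
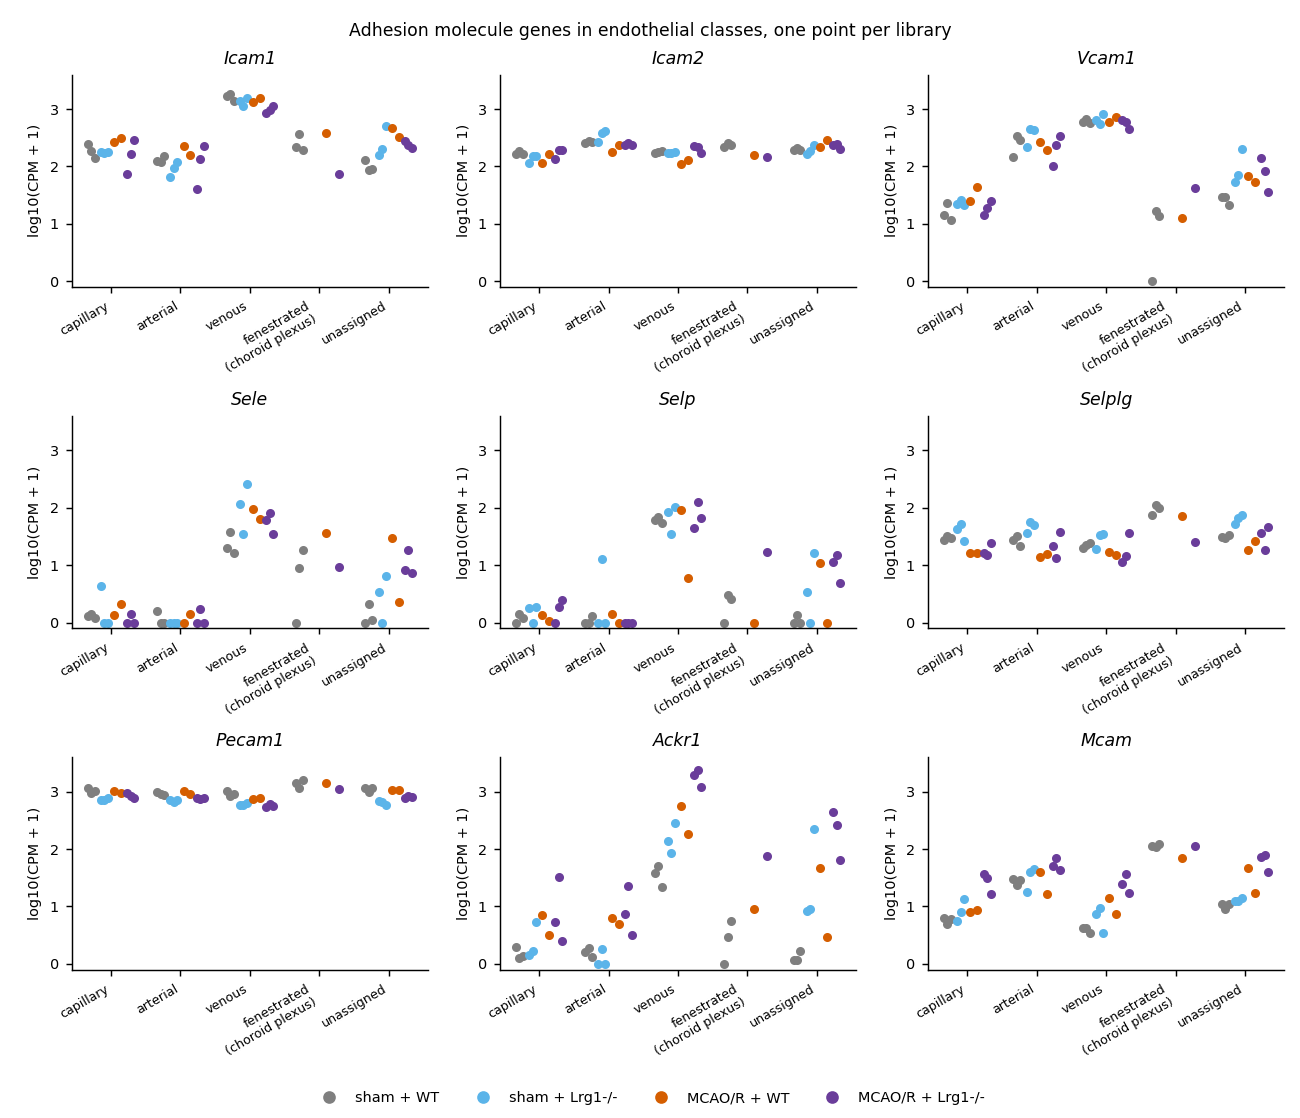
Level of each gene in each library, on a log10(CPM + 1) axis, over the capillary, arterial, venous, choroid plexus fenestrated and unassigned endothelial classes, 1 point per library, coloured by the 4 groups. *Sele*, *Selp*, *Ackr1*, *Icam1* and *Vcam1* are highest in the venous class, while the class means of *Icam2* (156 to 274 CPM) and *Pecam1* (704 to 1336 CPM) span the narrowest ratios.

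The venous class is where most of these genes are expressed and held 812 cells in the sham + WT group, 245 in sham + Lrg1-/-, 617 in MCAO/R + WT and 410 in MCAO/R + Lrg1-/-. It joined 2 clusters, cluster 10 (875 cells) and cluster 11 (1209 cells), which the groups filled unequally. Cluster 10 held 730 of the 812 sham + WT cells and 141 of the 245 sham + Lrg1-/- cells, but only 1 and 3 cells after MCAO/R in WT and Lrg1-/- mice. The remainder were in cluster 11, so differences between surgeries, and in part between sham groups, are also differences between these clusters. *Ackr1* was among the 10 leading genes of cluster 11 and *Icam1* among those of cluster 10. Haemoglobin genes summed to 23.8 to 174 CPM in sham + WT, 7121 to 28551 in sham + Lrg1-/-, 21.0 to 309 in MCAO/R + WT and 6447 to 15188 CPM in MCAO/R + Lrg1-/- venous cells, with none of the 4 at 0 in any library. The part of these differences in the results below was not tested, other than by keeping only cells with less than 1% haemoglobin UMIs.

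The comparison of genotypes after MCAO/R asked whether loss of *Lrg1* changed these genes in injured vessels. In venous cells, *Ackr1*, *Mcam* and *Icam2* were higher and *Icam1* was lower in the MCAO/R + Lrg1-/- group than in the MCAO/R + WT group. Calls required a Benjamini-Hochberg adjusted p below 0.05 with a natural-log fold change beyond 0.25 in either direction. These 4 of 9 genes passed, against 22.7% of all 13151 genes tested. The median log2 fold change of the 9 genes was 0.19, against 0.00 for all genes tested. After sham, 3 of 9 were called (background 11.5%), *Sele* and *Ackr1* higher and *Pecam1* lower in Lrg1-/- mice, with a median of 0.31. MCAO/R against sham called 4 of 9 in WT mice (background 21.9%), *Ackr1*, *Mcam* and *Sele* higher and *Icam2* lower, and 2 of 9 in Lrg1-/- mice (background 19.8%), *Ackr1* and *Mcam* higher, with medians of -0.13 and -0.05. The interaction of genotype and surgery called 1 of 9 (background 1.67%), *Icam2*. Of the calls in venous cells that rest on the MCAO/R + Lrg1-/- group, *Ackr1* between surgeries in Lrg1-/- mice alone was also made without both *Xist*-bearing libraries, which leave 1 library in that group.

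Among the rolling receptors, *Sele* was at 19.2, 37.1 and 15.1 CPM in the sham + WT libraries, 115, 34.4 and 262 in sham + Lrg1-/-, 93.8 and 61.8 in MCAO/R + WT, and 60.9, 81.6 and 34.0 CPM in MCAO/R + Lrg1-/-. The highest value was that of sham + Lrg1-/- replicate 5, from 219 UMIs in 42 cells, and the sham groups overlapped because replicate 2 of sham + Lrg1-/- lay below the highest sham + WT library. In edgeR's quasi-likelihood test, *Sele* was higher in Lrg1-/- than in WT mice after sham by 2.49 ± 0.49 (log2 fold change ± SE, adjusted p = 0.00457) and higher after MCAO/R than after sham in WT mice by 1.77 ± 0.49 (adjusted p = 0.0157). Within cluster 11 alone, neither was called (1.07, adjusted p = 0.243, and -0.49, adjusted p = 0.616). The second also missed the threshold without sham + WT replicate 1 (1.66, adjusted p = 0.0563) or 3 (1.49, 0.0892) and without MCAO/R + WT replicate 1 (1.40, 0.141), which left 1 library in that group that was assumed to vary like the others. After MCAO/R, the genotypes differed by -0.26 ± 0.51 (adjusted p = 0.764), with overlapping values. Both calls were also lost in cells thinned to 1000 UMIs (1.02 and 0.96), with ordinary nearest neighbours (1.25 and -0.21) and at a clustering resolution of 0.3 (1.72 and -0.26), and the second by DESeq2 (1.77, adjusted p = 0.114). The first was still called, at 1.77 and 1.69, without sham + Lrg1-/- replicate 5 and in cells with less than 1% haemoglobin UMIs. With a replicate block neither was called (1.87, adjusted p = 0.0887, and 1.48, 0.108).

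*Selp*, the P-selectin gene, passed the test in none of the comparisons of venous cells. It was at 60.2, 67.4 and 52.3 CPM in sham + WT, 83.8, 33.6 and 103 in sham + Lrg1-/-, 91.3 and 4.94 in MCAO/R + WT, and 43.5, 127 and 65.7 CPM in MCAO/R + Lrg1-/- libraries. The 2 MCAO/R + WT libraries differed most, with 791 UMIs in replicate 1 and 31 in replicate 2, and all groups overlapped. *Selplg* was at 10.2 to 35.2 CPM in every venous library, with no call.

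Of the integrin ligands, *Icam1* was at 1696, 1839 and 1356 CPM in sham + WT, 1379, 1121 and 1553 in sham + Lrg1-/-, 1331 and 1557 in MCAO/R + WT, and 841, 943 and 1135 CPM in MCAO/R + Lrg1-/- venous cells. All 3 MCAO/R + Lrg1-/- libraries lay below both MCAO/R + WT libraries, and the other 3 groups overlapped. The difference after MCAO/R was -0.57 ± 0.18 (adjusted p = 0.0339). It missed the threshold without MCAO/R + WT replicate 2 (-0.48, adjusted p = 0.176) and without MCAO/R + Lrg1-/- replicate 1 (-0.49, 0.0744) or 2 (-0.54, 0.113), in cells thinned to 1000 UMIs (-0.42, 0.285), with ordinary nearest neighbours (-0.19) and at a clustering resolution of 0.3 (-0.25). Without both *Xist*-bearing libraries it was -0.39 (adjusted p = 0.404), in cluster 11 alone -0.52 (0.0536), and in the fit over 2 groups -0.56 (0.0826). *Icam1* was not called in Lrg1-/- mice between MCAO/R and sham (-0.47 ± 0.17, adjusted p = 0.0593).

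*Icam2* moved the other way between genotypes. It was at 172, 181 and 182 CPM in sham + WT, 172, 173 and 179 in sham + Lrg1-/-, 110 and 128 in MCAO/R + WT, and 225, 213 and 174 CPM in MCAO/R + Lrg1-/- libraries. Both MCAO/R + WT libraries lay below all others. *Icam2* was higher in Lrg1-/- than in WT mice after MCAO/R by 0.78 ± 0.13 (adjusted p = 0.000755), and lower after MCAO/R than after sham in WT mice by 0.54 on the log2 scale (log2 fold change -0.54 ± 0.13, adjusted p = 0.00601). Without both *Xist*-bearing libraries, the genotype difference was 0.50 (adjusted p = 0.0993), with 1 Lrg1-/- library left, and the interaction described next was 0.51 (0.308). The decrease in WT mice was -0.45 (adjusted p = 0.121) without MCAO/R + WT replicate 1. The interaction was 0.78 ± 0.18 (adjusted p = 0.0388), a test added after the data were seen, and leaving out any 1 library other than MCAO/R + Lrg1-/- replicate 5 took its adjusted p above 0.05 (range of the estimate 0.68 to 0.86). It was also lost in thinned cells (1.33), with ordinary nearest neighbours (0.53), at a resolution of 0.3 (0.51) and in cluster 11 alone (0.64), and with ordinary nearest neighbours the decrease in WT mice was -0.46 (0.0591). *Vcam1*, with 442 to 832 CPM over the 11 libraries, was not called in venous cells.

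**Figure D2:**
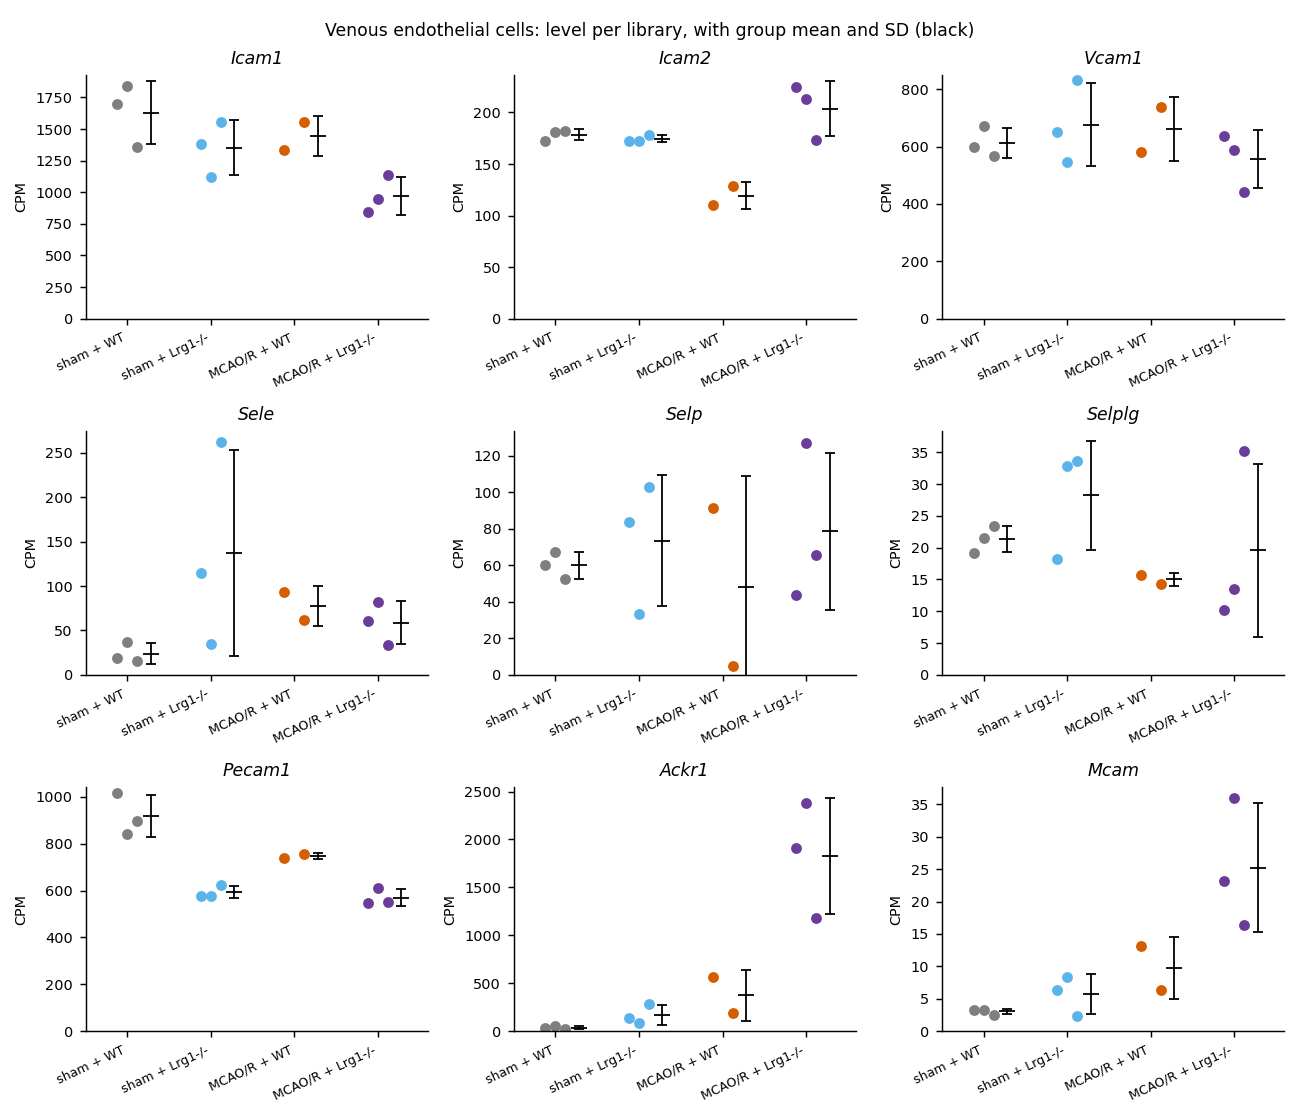
Level (CPM, axis from 0) of each gene in venous endothelial cells by group, 1 point per library, with the mean and SD of each group as a black mark and bar. *Ackr1* is highest in the 3 MCAO/R + Lrg1-/- libraries (1180 to 2381 CPM), where *Icam1* is at 841 to 1135 CPM, below both MCAO/R + WT libraries (1331 and 1557 CPM).

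*Ackr1* showed the widest range of the 9 genes in venous cells. It was at 36.6, 50.7 and 20.9 CPM in sham + WT, 137, 85.6 and 286 in sham + Lrg1-/-, 560 and 185 in MCAO/R + WT, and 1909, 2381 and 1180 CPM in MCAO/R + Lrg1-/- libraries. The MCAO/R + Lrg1-/- libraries lay above all others, the sham + WT libraries below all others, and the remaining groups overlapped. *Ackr1* was 4.85-fold higher in Lrg1-/- than in WT mice after MCAO/R (log2 fold change 2.28 ± 0.50, adjusted p = 0.00364) and 4.72-fold higher after sham (2.24 ± 0.46, adjusted p = 0.00601). MCAO/R against sham gave 10.8-fold in WT (3.43 ± 0.48, adjusted p = 6.21e-05) and 11.1-fold in Lrg1-/- mice (3.47 ± 0.46, adjusted p = 7.89e-05), and the interaction was 0.04 ± 0.64 (adjusted p = 0.995).

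In cluster 11 alone, *Ackr1* was at 110 to 206 CPM in sham + WT (n = 2), 216 to 399 in sham + Lrg1-/-, 185 to 560 in MCAO/R + WT and 1180 to 2383 CPM in MCAO/R + Lrg1-/- libraries. There the difference between genotypes after sham was 0.92 (adjusted p = 0.218), and the difference between surgeries in WT mice was 1.22 (adjusted p = 0.0934). These 2 calls were also lost with ordinary nearest neighbours (0.85 and 1.40) and at a clustering resolution of 0.3 (1.60 and 1.30). No single library ended any of the 4 calls in the venous class, but the MCAO/R + WT libraries moved those that rest on them. Without replicate 1 the genotype difference after MCAO/R was 3.32 and the surgery difference in WT mice 2.38, and without replicate 2 they were 1.68 and 4.03. In thinned cells the difference after sham was 3.33 and that between surgeries in WT mice 4.70. The difference between surgeries in Lrg1-/- mice was 2.44 at a resolution of 0.3 and 2.62 in cluster 11, and 4.04 without sham + Lrg1-/- replicate 5. The genotype difference after MCAO/R was 1.60 (adjusted p = 0.141) without both *Xist*-bearing libraries, with MCAO/R + Lrg1-/- replicate 5 left alone, while the difference between surgeries in Lrg1-/- mice was still called (2.84, 0.00538).

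*Mcam* was low in venous cells, at 3.31, 3.27 and 2.52 CPM in sham + WT, 6.38, 8.40 and 2.40 in sham + Lrg1-/-, 13.2 and 6.37 in MCAO/R + WT, and 23.2, 36.0 and 16.4 CPM in MCAO/R + Lrg1-/- libraries. These levels rest on 2 to 260 UMIs per library, and the MCAO/R + Lrg1-/- libraries lay above all others. *Mcam* was higher in Lrg1-/- than in WT mice after MCAO/R by 1.52 ± 0.33 (adjusted p = 0.00376), and after MCAO/R than after sham by 1.78 ± 0.37 in WT (adjusted p = 0.00219) and 2.22 ± 0.41 in Lrg1-/- mice (adjusted p = 0.00109). With ordinary nearest neighbours the change in WT mice turned to -0.048 (adjusted p = 0.947) and that in Lrg1-/- mice was 1.58, and in thinned cells *Mcam* did not pass the filter on low counts. Without MCAO/R + Lrg1-/- replicate 2 the genotype difference was 0.97 (adjusted p = 0.166), and without MCAO/R + WT replicate 1 it was 2.20 and the change in WT mice 1.11 (0.115). Without both *Xist*-bearing libraries the genotype difference was 0.67 (0.593) and the change in Lrg1-/- mice 1.40 (0.222). In cluster 11 alone the changes with surgery were 1.31 (0.212) in WT and 1.56 (0.0511) in Lrg1-/- mice. The 6 pericyte markers summed to 42.1 to 48.7 CPM in sham + WT, 28.8 to 112 in sham + Lrg1-/-, 79.5 to 87.6 in MCAO/R + WT and 53.7 to 104 CPM in MCAO/R + Lrg1-/- venous cells. The 6 choroid plexus markers summed to 274 to 446, 2803 to 6863, 165 to 236 and 1640 to 5672 CPM in the same order. After MCAO/R they were likewise higher in Lrg1-/- capillary (1875 to 4343 against 150 to 265 CPM) and arterial cells (3203 to 5498 against 166 to 251 CPM), and the part of either set in *Mcam* was not tested. Levels like those of venous and capillary cells were also found outside vessels. In MCAO/R + Lrg1-/- mice *Mcam* averaged 21.3 CPM in astrocytes, 19.8 in neurons and neuroblasts, 19.7 in neutrophils and 5.71 in microglia. In MCAO/R + WT mice these averages were 3.05, 4.29, 6.17 and 1.90 CPM. The source of the *Mcam* UMIs in venous and capillary cells was not tested.

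*Pecam1*, the junctional molecule, was lower in Lrg1-/- endothelium after sham. In venous cells it was at 1019, 842 and 896 CPM in sham + WT and 579, 578 and 626 CPM in sham + Lrg1-/- libraries, with no overlap. The difference was -0.60 ± 0.13 (adjusted p = 0.00646), and -0.29 (adjusted p = 0.266) in cluster 11 alone. After MCAO/R, *Pecam1* was at 738 and 758 CPM in WT and 545, 613 and 553 CPM in Lrg1-/- libraries, again without overlap, but the difference of -0.39 ± 0.14 was not called (adjusted p = 0.0533).

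**Figure D3:**
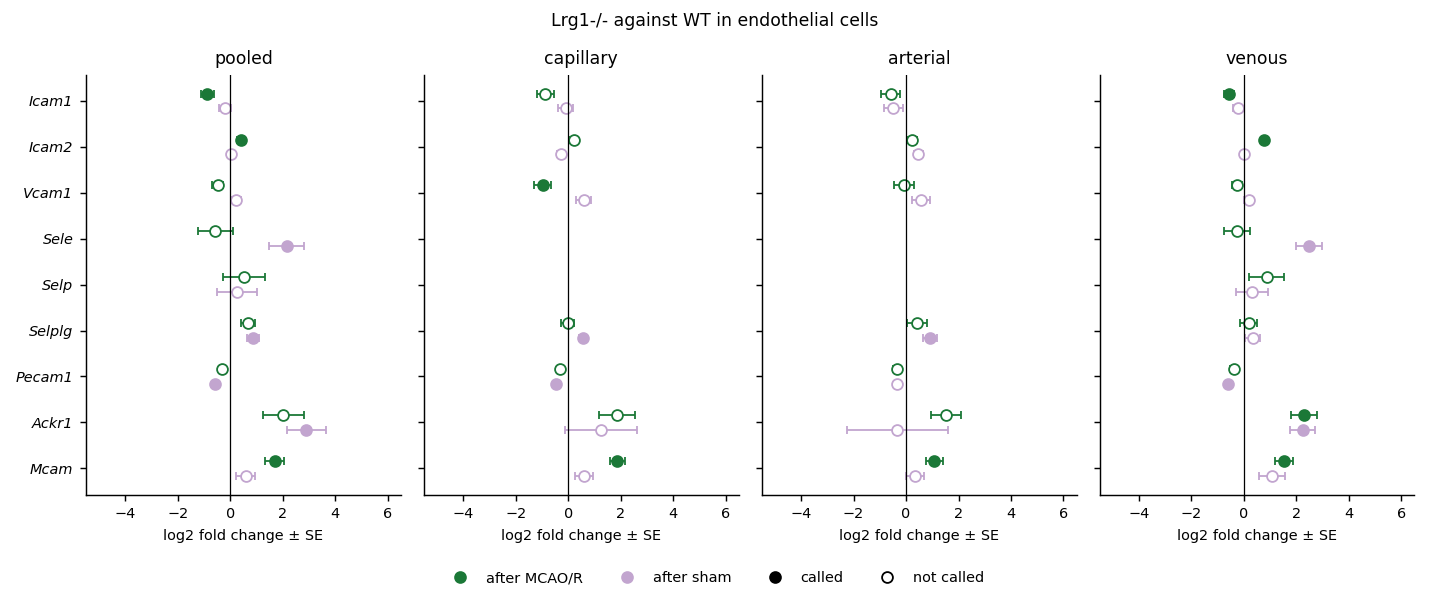
Log2 fold change (Lrg1-/- minus WT, ± SE) after MCAO/R (green) and after sham (lilac) in all, capillary, arterial and venous endothelial cells, with filled points for called results. *Mcam* is above 0 and called in all 4 after MCAO/R, at levels in venous and capillary cells also found in astrocytes and neurons. *Sele* and *Selp* were too low to be tested in capillary and arterial cells.

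Among the other endothelial classes, capillary cells (608 to 3093 per group) gave 2 of 7 genes called between genotypes after MCAO/R (background 19.9%), 2 of 7 after sham (8.73%), 3 of 7 between surgeries in WT (21.9%), 3 of 7 in Lrg1-/- mice (12.6%) and 1 of 7 for the interaction (4.83%). *Sele* and *Selp* did not pass the filter on low counts. Both counts between surgeries include *Ackr1*, which averaged 0.546 CPM in sham + WT and 1.84 CPM in sham + Lrg1-/- capillary cells. The source of its UMIs was not tested, as given below, so the counts between surgeries are not read against their backgrounds. Clusters 2, 3 and 9 made up the class and were filled unequally, with 862, 2185 and 46 cells of the sham + WT group, 432, 321 and 25 of sham + Lrg1-/-, 20, 2 and 2669 of MCAO/R + WT, and 450, 4 and 154 of MCAO/R + Lrg1-/-. Differences between surgeries in either genotype, between genotypes after MCAO/R and, in part, between genotypes after sham are therefore also differences between these clusters.

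*Mcam* in capillary cells was at 5.37, 3.93 and 5.05 CPM in sham + WT, 4.53, 6.90 and 12.4 in sham + Lrg1-/-, 7.01 and 7.84 in MCAO/R + WT, and 36.5, 30.7 and 15.3 CPM in MCAO/R + Lrg1-/- libraries. The last group lay above all others. The difference between genotypes after MCAO/R was 1.87 ± 0.30 (adjusted p = 0.000355), and that between surgeries in Lrg1-/- mice was 1.94 ± 0.33 (0.000951). Both held without any single library, but they were 0.87 (adjusted p = 0.448) and 0.95 (0.443) without both *Xist*-bearing libraries. The second was 4.53 in thinned cells and missed the threshold at a clustering resolution of 0.3 (1.77, adjusted p = 0.15). In cluster 9 *Mcam* was at 5.45 to 21.0 CPM in MCAO/R + Lrg1-/- and 7.03 to 7.85 CPM in MCAO/R + WT libraries, which overlap. In cluster 2 it was at 27.8 to 52.4 CPM in MCAO/R + Lrg1-/- and 5.53 to 21.0 CPM in sham + Lrg1-/- libraries, without overlap.

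*Vcam1* in capillary cells was at 13.4, 21.9 and 10.7 CPM in sham + WT, 21.0, 24.6 and 20.4 in sham + Lrg1-/-, 24.2 and 42.4 in MCAO/R + WT, and 13.3, 18.1 and 24.4 CPM in MCAO/R + Lrg1-/- libraries. Only in WT mice did both MCAO/R libraries lie above the sham libraries. It was higher after MCAO/R in WT mice by 1.16 ± 0.25 (adjusted p = 0.00197) and lower in Lrg1-/- than in WT mice after MCAO/R (-0.98 ± 0.33, adjusted p = 0.0443). The first was 0.72 (adjusted p = 0.0693) without MCAO/R + WT replicate 2. The second missed the threshold without that library (-0.56, 0.273), without MCAO/R + Lrg1-/- replicate 1 (-0.83, 0.137) or 2 (-1.04, 0.137), and narrowly without any 1 of the sham + Lrg1-/- libraries (-0.99, up to 0.0517). It was also lost with plain library totals (-0.90), in thinned cells (-0.98) and in the fit over 2 groups (-0.96), and was -0.62 (0.634) without both *Xist*-bearing libraries. With ordinary nearest neighbours in place of balanced ones, both changes reversed (-1.83 and 1.67).

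*Selplg* in capillary cells was at 27.0, 30.6 and 28.8 CPM in sham + WT, 42.0, 51.6 and 25.8 in sham + Lrg1-/-, 15.1 and 15.4 in MCAO/R + WT, and 15.1, 13.8 and 22.9 CPM in MCAO/R + Lrg1-/- libraries. All MCAO/R libraries lay below all sham libraries. It was lower after MCAO/R by -0.89 ± 0.17 in WT (adjusted p = 0.000948) and -1.48 ± 0.24 in Lrg1-/- mice (0.000535), and neither call depended on 1 library, but the second was -1.02 (0.19) without both *Xist*-bearing libraries, and in cells thinned to 1000 UMIs neither was called (-0.64 and -1.37). The second was also lost with ordinary nearest neighbours (-1.47, 0.149) and at a resolution of 0.3 (-1.80, 0.11). Within cluster 2, *Selplg* was at 36.8 to 57.6 CPM in sham + Lrg1-/- and 12.2 to 31.3 CPM in MCAO/R + Lrg1-/- libraries, while the WT groups hardly share a cluster. In microglia *Selplg* itself was lower after MCAO/R (log2 fold changes -1.24 and -1.29 in WT and Lrg1-/- mice), and calls in the same direction were made in pericytes and oligodendrocytes of WT mice and in monocytes and macrophages and erythroid cells of Lrg1-/- mice. Their part in the capillary values was not tested. Microglial markers, whose cells carry *Selplg*, summed to 737 to 876 CPM in sham + WT, 882 to 1339 in sham + Lrg1-/-, 743 to 953 in MCAO/R + WT and 878 to 2130 CPM in MCAO/R + Lrg1-/- capillary cells, and their part was not tested. After sham, *Selplg* was higher in Lrg1-/- than in WT capillary cells by 0.56 ± 0.17 (adjusted p = 0.0437), with overlapping groups, and without sham + Lrg1-/- replicate 2 by 0.32 (0.388), and the call was also lost without any 1 sham + WT library, sham + Lrg1-/- replicate 1 or MCAO/R + WT replicate 2 (0.51 to 0.59), by DESeq2 (0.54), with plain library totals (0.55), in thinned cells (0.84), at a resolution of 0.3 (0.49) and in cells with less than 1% haemoglobin UMIs (0.51).

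*Pecam1* in capillary cells was at 1133, 935 and 1033 CPM in sham + WT and 718, 721 and 785 CPM in sham + Lrg1-/- libraries, without overlap. The difference was -0.46 ± 0.11 (adjusted p = 0.0124), and it missed the threshold without sham + WT replicate 1 (-0.39, 0.058) or sham + Lrg1-/- replicate 2 (-0.45, 0.0617), in thinned cells (-0.45, 0.0776) and at a resolution of 0.3 (-0.35, 0.0613). With a replicate block, neither this call nor that of *Selplg* after sham was kept. *Ackr1* was also called between surgeries in both genotypes, with low levels that lay close to those in microglia, which are not known to make it. They averaged 0.546, 1.84, 4.10 and 12.4 CPM in capillary cells of the sham + WT, sham + Lrg1-/-, MCAO/R + WT and MCAO/R + Lrg1-/- groups and 0.313, 1.59, 3.94 and 12.9 CPM in microglia, where the same 2 comparisons were called. In Lrg1-/- mice the capillary log2 difference of 3.57 ranged from 1.26 to 4.74 over left-out libraries and reversed with ordinary nearest neighbours. The source of the *Ackr1* UMIs in capillary cells was not tested, so no expression by capillary cells is read from them.

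In arterial cells (180 to 412 per group), 1 of 7 genes was called between genotypes after MCAO/R (background 18.0%), 1 of 7 after sham (21.3%), 1 of 7 between surgeries in WT (9.54%) and 2 of 7 in Lrg1-/- mice (6.39%). The interaction called none by edgeR or DESeq2, against 0.440% of genes (49 by edgeR, with 1193 at an unadjusted p below 0.05). *Mcam* was at 38.7 and 15.5 CPM in MCAO/R + WT and 50.0, 68.4 and 42.6 CPM in MCAO/R + Lrg1-/- libraries, without overlap (1.07 ± 0.33, adjusted p = 0.0317). It was 0.55 (0.326) without MCAO/R + WT replicate 2 and 0.79 (0.252) without MCAO/R + Lrg1-/- replicate 2, 1.88 (still called) without MCAO/R + WT replicate 1, and 0.60 (0.583) without both *Xist*-bearing libraries. The call was also lost by DESeq2 (1.02, 0.0727) and in the fit over 2 groups (1.06, 0.0737). In thinned arterial cells neither *Mcam* nor *Selplg* passed the filter on low counts. *Selplg* was at 26.9, 31.4 and 20.7 CPM in sham + WT, 35.6, 55.7 and 48.7 in sham + Lrg1-/-, and 21.0, 12.6 and 36.2 CPM in MCAO/R + Lrg1-/- libraries. It was higher in Lrg1-/- than in WT mice after sham (0.92 ± 0.28, adjusted p = 0.0231) and lower after MCAO/R in Lrg1-/- mice (-1.40 ± 0.33, 0.0146). Without sham + Lrg1-/- replicate 2 these were 0.69 (0.24) and -1.17 (0.156), without MCAO/R + Lrg1-/- replicate 2 the second was -0.84 (0.207), without both *Xist*-bearing libraries it was -0.46 (0.613), and the first also missed the threshold without sham + WT replicate 1 or 3 or sham + Lrg1-/- replicate 5 (0.79 to 0.93) and by DESeq2 (0.90, 0.0558). In cells with less than 1% haemoglobin UMIs neither was called (0.58 and -0.96), nor was the second in the fit over 2 groups (-1.35, 0.0512). Microglial markers in arterial cells summed to 583 to 898 CPM in sham + WT, 1048 to 1423 in sham + Lrg1-/- and 1115 to 2817 CPM in MCAO/R + Lrg1-/- libraries. In microglia *Selplg* itself was lower after MCAO/R in Lrg1-/- mice (-1.29). The part of microglial transcripts in the arterial *Selplg* values was not tested. *Ackr1* was called between surgeries in both genotypes on 0 to 2 UMIs per sham library, so it passed the filter on low counts through its MCAO/R libraries. It is the only arterial call between surgeries in WT mice and 1 of the 2 in Lrg1-/- mice. Those counts are therefore not read against their backgrounds. After MCAO/R *Ackr1* averaged 4.63 CPM in WT and 10.1 CPM in Lrg1-/- arterial cells, beside 3.94 and 12.9 CPM in microglia and 3.98 and 21.2 CPM in oligodendrocytes, and here too the source of the UMIs was not tested.

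Over all endothelial cells except the fenestrated ones, 3 of 9 genes were called between genotypes after MCAO/R (background 30.1%), 4 of 9 after sham (18.3%), 2 of 9 between surgeries in WT (21.0%) and 3 of 9 in Lrg1-/- mice (22.3%), and none for the interaction by edgeR or DESeq2 (3.02%, 485 genes by edgeR, with 2898 at an unadjusted p below 0.05). *Icam2* and *Mcam* were higher and *Icam1* lower in Lrg1-/- mice after MCAO/R, and *Sele*, *Selplg* and *Ackr1* were higher and *Pecam1* lower after sham. *Sele* and *Ackr1* were higher after MCAO/R than after sham in WT mice, and *Ackr1* and *Mcam* higher and *Selplg* lower in Lrg1-/- mice. Several of these rested on single libraries or settings. After sham, *Sele* (2.15) was not called without sham + WT replicate 1 or 3 or sham + Lrg1-/- replicate 1 or 5 (1.59 without the last), in cells with less than 1% haemoglobin UMIs (1.36, adjusted p = 0.157), in thinned cells (1.17), with ordinary nearest neighbours (2.20) or at a resolution of 0.3 (2.06). *Ackr1* after sham (2.90) was not called without sham + WT replicate 1 or 3 (2.89 and 2.62), without sham + Lrg1-/- replicate 5 (1.55, 0.108) or at a resolution of 0.3 (2.01). *Selplg* after sham (0.87) was not called without any 1 sham library other than sham + Lrg1-/- replicate 1 (0.76 to 0.89), in cells with less than 1% haemoglobin UMIs (0.57), with ordinary nearest neighbours (1.02) or at a resolution of 0.3 (0.58).

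Between surgeries in WT mice, pooled *Sele* (2.06) was not called by DESeq2 (2.05, adjusted p = 0.102), in thinned cells (1.56), with ordinary nearest neighbours (1.73), at a resolution of 0.3 (1.95), or without sham + WT replicate 1 or 3, sham + Lrg1-/- replicate 1 or MCAO/R + WT replicate 1 (1.48 to 2.06), and *Ackr1* (3.57) was not called without the last of these (2.46, 0.0718). In Lrg1-/- mice *Ackr1* (2.69) was not called without sham + Lrg1-/- replicate 1 (2.39), MCAO/R + Lrg1-/- replicate 2 (2.34) or both *Xist*-bearing libraries (1.90), *Selplg* (-0.95) not without replicate 2 of either Lrg1-/- group (-0.84 and -0.63), both *Xist*-bearing libraries (-0.35) or with ordinary nearest neighbours (-0.36), and *Mcam* (2.16) not without both *Xist*-bearing libraries (1.41). Leaving out 1 library gave 2.17 to 4.04 for the pooled *Ackr1* difference between surgeries in Lrg1-/- mice. *Icam2* after MCAO/R (0.41, adjusted p = 0.0492) was not called without any 1 of 7 libraries (0.30 to 0.50), without both *Xist*-bearing ones (0.26) or under several other settings, thinning among them (0.28).

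*Icam1* fell to 278, 366 and 405 CPM in MCAO/R + Lrg1-/- libraries from 610 and 650 CPM in MCAO/R + WT (-0.89 ± 0.25, adjusted p = 0.016), without overlap. Venous cells made up 7.41 to 9.59% of endothelial cells in the former and 10.8 to 14.5% in the latter libraries, so a smaller share of the class with the most *Icam1* moved with it. The call was lost without MCAO/R + WT replicate 1 (-0.89, 0.0528) or 2 (-0.87, 0.0623) or MCAO/R + Lrg1-/- replicate 1 (-0.72, 0.0508), and without both *Xist*-bearing libraries (-0.69, 0.188). *Mcam* rose to 56.0, 66.5 and 31.4 CPM from 22.5 and 8.78 CPM (1.69 ± 0.37, adjusted p = 0.00408) and kept its call without any single library, but not without both *Xist*-bearing libraries (0.93, 0.199), and was 2.59 without MCAO/R + WT replicate 1. Endothelial cells with no class, where *Mcam* averaged 28.7 CPM, made up 58.5 to 70.7% of endothelial cells in MCAO/R + Lrg1-/- and 13.4 to 34.0% in MCAO/R + WT libraries, and capillary cells, where it averaged 12.3 CPM, 11.7 to 24.0% and 43.6 to 66.7%. The part of this mix in the pooled results was not tested. *Pecam1* after sham was at 1094, 921 and 1017 CPM in WT and 665, 665 and 645 CPM in Lrg1-/- libraries (-0.60 ± 0.10, adjusted p = 0.0017), and this too held without any single library. With a replicate block, none of the pooled calls after sham was kept, that of *Pecam1* included. Fenestrated cells allowed only the comparison of surgeries in WT mice, with 1 MCAO/R + WT library of 24 cells that was assumed to vary like the 3 sham + WT libraries. None of 8 genes tested was called by edgeR (background 3.20%, 1136 of 7343 genes at an unadjusted p below 0.05).

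**Figure D4:**
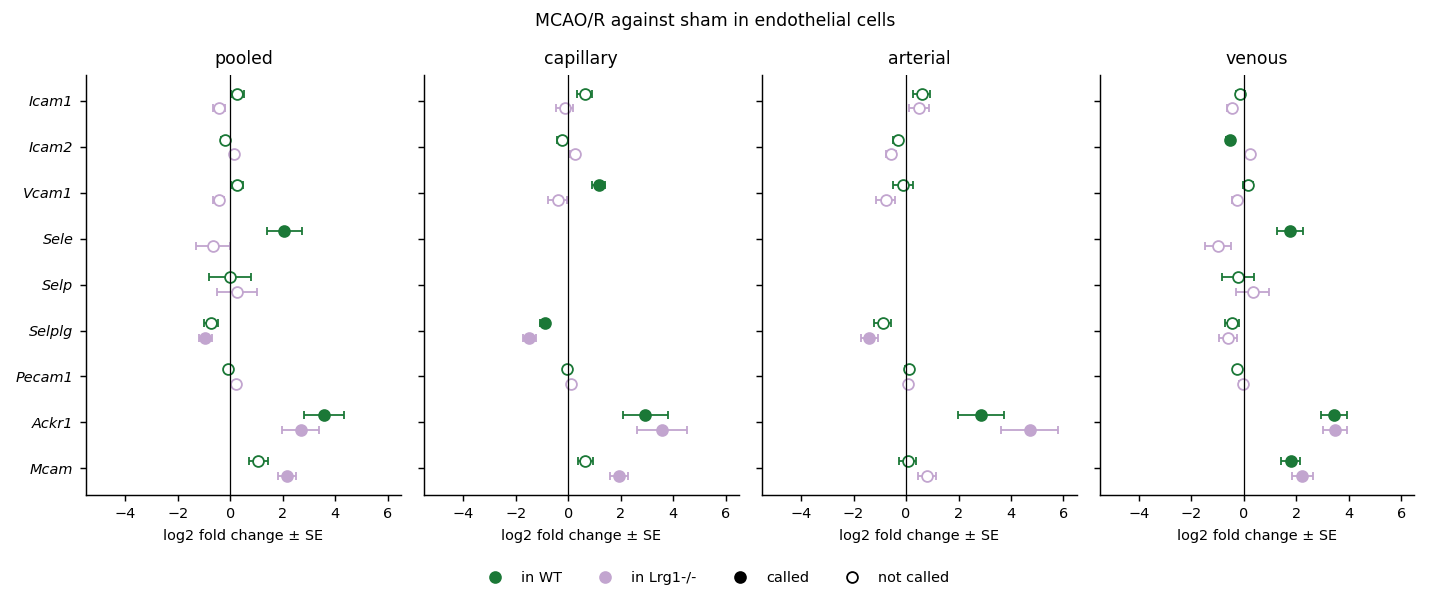
Log2 fold change (MCAO/R minus sham, ± SE) in WT and in Lrg1-/- mice over the same 4 sets of endothelial cells, with filled points for called results. *Ackr1* lies above 0 in venous cells of both genotypes (3.43 and 3.47), while its points in capillary and arterial cells rest on levels also found in microglia, and *Selplg* lies below 0 and is called in capillary cells of both.

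Genes that act upstream of adhesion were read from lists over all endothelial cells, where 30.1% of all 16069 genes were called between genotypes after MCAO/R, 18.3% after sham, 21.0% between surgeries in WT and 22.3% in Lrg1-/- mice. Of 21 cytokine receptor and NF-κB genes, 0 were higher and 6 lower in Lrg1-/- than in WT mice after MCAO/R (median log2 fold change -0.08), a share near that background, and 7 were higher and 1 lower after MCAO/R than after sham in WT mice (median 0.29). *Il1r1*, the receptor of interleukin 1 and one of the markers that named venous cells, rose in WT mice after MCAO/R (2.20 ± 0.26, adjusted p = 5.74e-05), as did *Tnfrsf1a* (1.32 ± 0.18, 0.000161), the main TNF receptor, and *Birc3* (1.12 ± 0.16, 0.000216), an NF-κB target. *Il1r1* (-2.20 ± 0.26, 9.01e-05), *Birc3* (-0.91 ± 0.16, 0.00103) and *Rel* (-0.73 ± 0.15, 0.00252) were lower in Lrg1-/- mice after MCAO/R, and the interaction for *Il1r1* was -1.78 ± 0.35 (adjusted p = 0.0187). After sham 2 genes of the list were higher and 3 lower in Lrg1-/- mice, and in Lrg1-/- mice 5 were higher and 1 lower after MCAO/R.

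Of 14 chemokines and cytokines shown or made by endothelium, 3 rose and 2 fell after MCAO/R in WT mice, and 5 rose and 2 fell in Lrg1-/- mice (medians 0.84 and 0.40). *Csf3*, the granulocyte growth factor, rose in WT mice (5.76 ± 1.01, adjusted p = 0.00122), while *Cxcl12*, which draws lymphocytes and progenitor cells, fell in both (-2.02 ± 0.27 and -1.91 ± 0.24). *Cxcl16*, a membrane-bound chemokine, was higher in Lrg1-/- mice after MCAO/R (1.71 ± 0.24, adjusted p = 0.000277), 1 of 2 called there. After sham, *Cxcl1* alone was called (1.16 ± 0.38, adjusted p = 0.0438). The restraint list of 10 genes, which limit adhesion, had 4 higher and 1 lower in WT mice after MCAO/R, 3 higher and 5 lower in Lrg1-/- mice, 0 higher and 2 lower between genotypes after MCAO/R (*Klf2*, -0.56 ± 0.14, and *Klf4*, -0.42 ± 0.13), and 1 higher after sham (*Socs3*).

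Partners of the 9 genes were read against the same shares. Of 11 junctional and diapedesis genes, 10 were tested, and 1 was higher after MCAO/R in Lrg1-/- mice, *Jam3* (0.93 ± 0.20, adjusted p = 0.00428), a junctional adhesion molecule, with 1 lower after sham (*Alcam*, -0.63 ± 0.16). Between surgeries 2 rose and 1 fell in WT, and 3 rose in Lrg1-/- mice. Of 15 sialomucins and selectin ligand enzymes, 11 were tested, with 3 higher (*Podxl* and *Cd34*, endothelial sialomucins, among them) and 3 lower between genotypes after MCAO/R, 1 higher and 2 lower after sham, 1 higher and 3 lower between surgeries in WT, and 2 lower in Lrg1-/- mice. Of 13 leukocyte counter-receptors, 12 were tested, and 6 were higher between genotypes after MCAO/R, among them *Itgal* (2.98 ± 0.52, adjusted p = 0.000971) and *Itgam* (1.38 ± 0.37, 0.0124), integrin chains of leukocytes. Neutrophil markers summed to 57.9 to 336 CPM and microglial markers to 1661 to 2610 CPM in these Lrg1-/- libraries, against 14.7 to 15.6 and 707 to 1024 CPM in MCAO/R + WT endothelium, and their part in the integrin counts was not tested. Counter-receptors had 1 higher and 1 lower after sham, 1 higher and 2 lower in WT after MCAO/R and 4 higher in Lrg1-/- mice.

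Without both *Xist*-bearing libraries, which leaves 1 MCAO/R + Lrg1-/- library that was assumed to vary like the others, 12.7% of all genes were called between genotypes after MCAO/R and 12.3% between surgeries in Lrg1-/- mice. Between genotypes after MCAO/R, *Il1r1* (-1.88, adjusted p = 0.00649), *Birc3* (-0.71, 0.0132), *Cxcl16* (1.66, 0.00955), *Jam3* (1.14, 0.0142), *Podxl* (0.53, 0.0249) and *Itgam* (1.72, 0.0436) were still called. *Rel* (-0.46, 0.0764), *Klf2* (-0.42, 0.132), *Klf4* (-0.36, 0.188), *Cd34* (0.24, 0.391) and *Itgal* (2.66, 0.068) were not, nor was the interaction for *Il1r1* (-1.45, 0.116). The lists then had 3 lower of 21 cytokine receptor and NF-κB genes, 1 higher of 14 chemokines, 1 lower of 10 restraint genes, 1 higher and 1 lower of 10 junctional genes, 1 higher and 1 lower of 11 sialomucins and enzymes, and 3 higher of 13 counter-receptors. Between surgeries in Lrg1-/- mice they had, in the same order, 5 higher and 1 lower, 2 higher and 2 lower, 1 higher and 4 lower, 3 higher, 1 lower, and 1 higher, and *Cxcl12* was still lower (-2.19, 0.000431).

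The 8 immediate early genes of dissociation moved with genotype and surgery as well. In all endothelial cells 6 were lower in Lrg1-/- mice after MCAO/R, 2 after sham, 3 after MCAO/R in WT and 8 in Lrg1-/- mice, and none was higher. Without both *Xist*-bearing libraries 4 were lower between genotypes after MCAO/R and 4 between surgeries in Lrg1-/- mice. They summed to 14771 to 18477 CPM in MCAO/R + Lrg1-/-, 25010 to 26385 in MCAO/R + WT, 27661 to 28903 in sham + Lrg1-/- and 30339 to 34066 CPM in sham + WT libraries. *Icam1* was lowest in the group where they were lowest, and their part in its level was not tested.

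Outside endothelium, 16 cell types were tested, in 52 comparisons, and 41 of 354 results of the 9 genes were called, against 9.74% of all results over genes in these comparisons. The calls include *Ackr1* in types where it was near 0 in sham + WT, such as ependymal cells (0.402 CPM) and astrocytes (0.593 CPM). The total is therefore not read against that share. In 9 of the 52, over 6 cell types, a group had 1 library, assumed to vary like the others, and none of their 42 results was called. In microglia, *Mcam* was the only 1 of 9 genes called between genotypes after MCAO/R (background 25.6%) and after sham (23.0%). It was at 2.44, 2.40 and 2.26 CPM in sham + WT, 9.46, 8.58 and 8.90 in sham + Lrg1-/-, 1.94 and 1.87 in MCAO/R + WT, and 6.23, 5.84 and 5.06 CPM in MCAO/R + Lrg1-/- microglia. All Lrg1-/- libraries lay above all WT libraries. The difference was 1.74 ± 0.20 after sham (adjusted p = 6.91e-05) and 1.50 ± 0.21 after MCAO/R (0.000413), and both kept their call under every alternative computed for microglia, also without both *Xist*-bearing libraries. The settings of thinning, haemoglobin, doublets, mitochondrial limit and clustering were computed for endothelial cells only. Endothelial markers summed to 187 to 272, 270 to 464, 276 to 342 and 124 to 488 CPM in microglia of these 4 groups in the same order. The 7 smooth muscle markers, of the cells with the most *Mcam*, summed to 81.3 to 114, 310 to 431, 81.0 to 82.0 and 129 to 148 CPM there, so they too were higher in all Lrg1-/- libraries, while the 9 pericyte markers summed to 21.0 to 63.8 CPM. The 8 choroid plexus epithelial markers also summed higher in all Lrg1-/- microglia, at 292 to 559, 3886 to 4656, 124 to 264 and 2243 to 4046 CPM in the same order, and the 8 oligodendrocyte markers did so after sham (388 to 575 and 729 to 1402 CPM) but overlapped after MCAO/R (304 to 719 and 383 to 999 CPM). None of the smooth muscle, choroid plexus or oligodendrocyte markers was at 0 in any library, and their part in *Mcam* was not tested.

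In neurons and neuroblasts, *Mcam* was at 8.03, 4.17 and 3.07 CPM in sham + WT and 35.9, 30.1 and 34.9 CPM in sham + Lrg1-/- libraries, and at 3.89 and 4.70 CPM in MCAO/R + WT and 17.1, 26.3 and 16.0 CPM in MCAO/R + Lrg1-/- libraries. Lrg1-/- libraries lay above WT libraries after either surgery. It was 1 of 7 genes called in each comparison (backgrounds 3.18% and 4.23%), at 2.68 ± 0.41 after sham (adjusted p = 0.00647) and 2.21 ± 0.44 after MCAO/R (0.021), on 7 to 43 UMIs per library. The second was lost without MCAO/R + WT replicate 1 (2.14, 0.18) or 2 (2.44, 0.165), or without both *Xist*-bearing libraries (1.99, 0.082). Endothelial markers there summed to 268 to 816 CPM in sham + WT and 935 to 5088 CPM in sham + Lrg1-/- libraries. Smooth muscle markers summed to 99.8 to 202 CPM in sham + WT, 838 to 1276 in sham + Lrg1-/-, 79.1 to 84.5 in MCAO/R + WT and 159 to 426 CPM in MCAO/R + Lrg1-/- libraries, with at most 1 marker at 0. Choroid plexus epithelial markers summed to 334 to 647, 14651 to 17855, 128 to 217 and 6038 to 24326 CPM in the same order, again with at most 1 at 0. Oligodendrocyte markers were higher in Lrg1-/- neurons after MCAO/R (1600 to 2655 against 728 to 1142 CPM, none at 0) and overlapped after sham, while pericyte markers were higher after sham (150 to 229 against 27.6 to 110 CPM) and lower after MCAO/R (41.9 to 51.7 against 85.0 to 142 CPM). The part of these sets was not tested. *Mcam* was also higher in Lrg1-/- oligodendrocytes after MCAO/R, at 94.3, 68.6 and 58.7 CPM against 46.0 and 39.3 CPM (0.88 ± 0.19, adjusted p = 0.00411), 1 of 4 genes called of 8 (background 30.5%), and this was 0.74 (0.0581) without MCAO/R + WT replicate 2.

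In the cells with the most *Mcam*, no difference between genotypes was called. Vascular smooth muscle cells held 481, 445 and 496 CPM in sham + WT, 537, 609 and 518 in sham + Lrg1-/-, 444 and 433 in MCAO/R + WT, and 557, 454 and 345 CPM in MCAO/R + Lrg1-/- libraries. The sham groups did not overlap, with Lrg1-/- above WT, while the MCAO/R groups did. The genotype difference was 0.02 ± 0.17 after MCAO/R (adjusted p = 0.947) and 0.25 ± 0.15 after sham (0.323). In pericytes it was -0.27 ± 0.33 (0.61) and 0.14 ± 0.31 (0.86). In astrocytes it was 2.77 ± 0.94 after MCAO/R and 2.30 ± 0.76 after sham, larger than in microglia but not called. *Mcam* was also called higher in choroid plexus epithelium (2.88 and 2.77) and, after MCAO/R, in border-associated macrophages (2.18). The rise was thus not confined to microglia, neurons and oligodendrocytes.

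**Figure D5:**
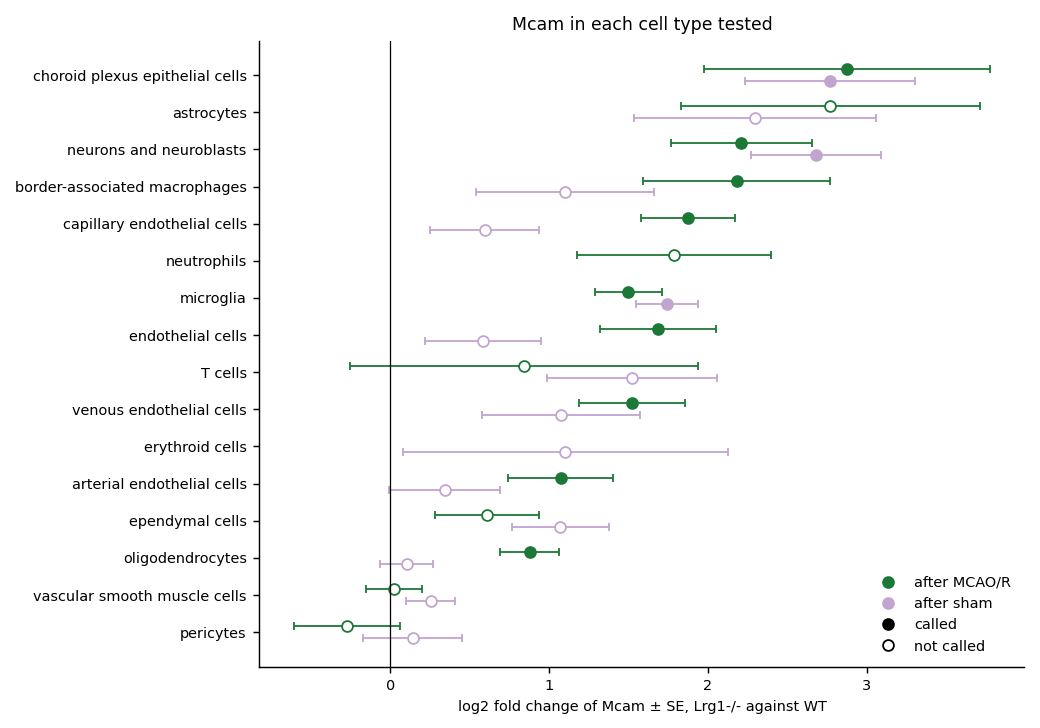
Log2 fold change of *Mcam* (Lrg1-/- minus WT, ± SE) after MCAO/R and after sham over 16 cell types and endothelial classes, ordered by the larger of both changes, with filled points for called results. Neurons, choroid plexus epithelium and microglia lie far above 0 and are called after either surgery, while smooth muscle cells and pericytes lie near 0. *Mcam* was also higher in astrocytes (2.77 after MCAO/R and 2.30 after sham), without a call.

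*Selplg* in microglia, the cells with the most of it, was at 1075, 970 and 1099 CPM in sham + WT, 749, 879 and 962 in sham + Lrg1-/-, 369 and 515 in MCAO/R + WT, and 332, 247 and 402 CPM in MCAO/R + Lrg1-/- libraries. All MCAO/R libraries lay below all sham libraries. It was lower after MCAO/R by -1.24 ± 0.20 in WT (adjusted p = 0.000614), 1 of 2 genes called of 9 (background 22.2%), and by -1.29 ± 0.17 in Lrg1-/- mice (0.000116), 1 of 3 called (36.3%), with both calls kept without any single library. In monocytes and macrophages, *Selplg* was at 149, 148 and 127 CPM in sham + WT and 224, 295 and 325 CPM in sham + Lrg1-/- libraries, without overlap (1.26 ± 0.29, adjusted p = 0.0148, 1 of 2 called of 6, background 14.9%). This was 1.20 (0.0535) without sham + WT replicate 3 and 1.10 (0.0587) without sham + Lrg1-/- replicate 5. Microglial markers in these cells moved the same way, from 747 to 1018 CPM in sham + WT to 1906 to 2210 CPM in sham + Lrg1-/- libraries, while endothelial markers were at 3965 to 7449 and 932 to 3382 CPM, and their part was not tested.

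*Pecam1* was also lower in T cells of the sham + Lrg1-/- group, at 90.4, 80.2 and 78.3 CPM against 413, 326 and 513 CPM in sham + WT, without overlap (-2.25 ± 0.24, adjusted p = 0.000265, 1 of 7 called, background 16.4%). The call held without any single library. Endothelial markers moved the same way in these T cells, from 2762 to 3573 CPM in sham + WT to 987 to 2710 CPM in sham + Lrg1-/- libraries, and their part was not tested. In pericytes, *Icam2* was higher in Lrg1-/- mice after MCAO/R, at 15.8, 13.2 and 32.4 CPM against 5.22 and 5.57 CPM (2.02 ± 0.48, adjusted p = 0.0102, 1 of 4 called of 7, background 17.0%), on 5 to 28 UMIs per library. Endothelial markers summed to 1343 to 2286 CPM in these pericytes and to 1658 to 1763 CPM in those of MCAO/R + WT. The call was lost without MCAO/R + WT replicate 1 (1.95, 0.0662) or 2 (2.06, 0.102) or MCAO/R + Lrg1-/- replicate 5 (1.50, 0.0658). After sham, *Icam2* was also called higher in Lrg1-/- pericytes (2.96), ependymal cells (2.7), choroid plexus epithelial cells (3.24) and smooth muscle cells (1.7). After MCAO/R it was higher without overlap, but not called, in astrocytes, ependymal cells, neurons and smooth muscle cells (1.67 to 2.2). In monocytes and macrophages it was -0.03 after either surgery. The rise was thus not confined to pericytes, and the source of these UMIs was not tested.

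Genes with the most similar pattern over 22 cell types and classes were taken by Pearson's r of log2(mean CPM + 1) among 14968 genes, as a description, since the types share libraries. *Sele* and *Selp* were nearest to each other (r = 0.890), followed by *Gm5127* (0.886 and 0.840). *Lrg1* came next for *Selp* (0.809), a mean over groups of which some lack it. *Icam2* followed *Ly6a* (0.973), *Sigirr* and *Adcy4*, and *Pecam1* followed *Grasp* (0.952), *Ly6a* and *Icam2* (0.937). *Icam1* was nearest to *Pwwp2b* (0.836), *Nfkbia* (0.834), an inhibitor of NF-κB, and *Rin3*. *Ackr1* was nearest to *Csf3* (0.838), *Sele* (0.701) and *Lcn2* (0.685), *Selplg* to *Bin2* (0.930), *Mcam* to *Gm10687* (0.894), *Cabp1* and *Inafm2*, and *Vcam1* to *Chpf2* (0.714), *Naprt* and *Colca2*.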

How the data were processed

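The deposited matrices hold raw UMI counts per gene and barcode, which the authors made from 10x 3′ reads. The matrix headers name Cell Ranger 7.0.1, and the submitters' processing notes name STAR and mm10. Cells with more than 500 genes, more than 1000 UMIs and less than 25% mitochondrial UMIs were kept and doublets removed (automatic threshold, or the highest 6% of scores). From 2000 variable genes without the 9 genes described, 15 principal components and a graph with 3 neighbours per mouse were clustered at a resolution of 1 (scanpy 1.11.5, leidenalg 0.10.2), and clusters were named from marker lists. Counts were summed per library and cell type (at least 20 cells) and fitted over all 4 groups with edgeR 4.0.16 (quasi-likelihood test, TMM, its filter on low counts, Benjamini-Hochberg adjustment). Calls needed an adjusted p below 0.05 and a natural-log fold change beyond 0.25 in either direction. DESeq2 1.42.0 was an alternative. On simulated counts with the venous libraries' means, 22 of 100 genes changed 2-fold and 89 of 100 changed 4-fold were called between genotypes after MCAO/R. The spread was set at a dispersion of 0.05 for all genes, not taken from the data, and few genes were changed. These shares therefore hold for the simulated counts only.

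The genes, lists and markers were chosen with earlier results of these data known. Genes named beyond the 9 were the called ones of each list with the smallest adjusted p, up to 4. Same-numbered libraries did not deviate together (r from -0.29 to 0.0425 over 13 pairs), so the main fit has no replicate block. The labels do not say whether libraries with equal numbers share a batch, and so few libraries per group cannot settle it. Replicates are mice, so p-values measure the spread between these mice. *Ccl19* and *Ccl21a* have duplicate symbols, and reads shared with near copies make their counts uncertain. Transcripts of antisense or overlapping genes were not separated here.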

Additional observations from a re-analysis of the deposited data

Results flagged for a closer look

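The effect of surgery differed between WT and Lrg1-/- mice by the test of the interaction in 2 results, and an untested value is given beside them. *Icam2* in venous cells had an interaction of 0.78 ± 0.18 (log2, adjusted p = 0.0388, edgeR's quasi-likelihood test), with both MCAO/R + WT libraries (110 and 128 CPM) below all others. It was lost when any 1 library other than MCAO/R + Lrg1-/- replicate 5 was left out (0.68 to 0.86), in thinned cells (1.33), with ordinary nearest neighbours (0.53), at a resolution of 0.3 (0.51), in cluster 11 alone (0.64) and without both *Xist*-bearing libraries (0.51). *Vcam1* in capillary cells had an interaction of -1.56 ± 0.44 (adjusted p = 0.0499994), but 3.13, the opposite direction, with ordinary nearest neighbours. It passed the threshold narrowly and was lost when any 1 of 9 libraries was left out (-1.12 to -1.71), holding only without sham + WT replicate 2 or MCAO/R + WT replicate 1. The capillary class came from different clusters in the 2 MCAO/R groups. For *Sele* in capillary cells, which did not pass the filter on low counts, both MCAO/R + WT libraries (0.346 and 1.15 CPM) lay above the sham + WT mean of 0.290 CPM, with overlapping libraries, and all 3 MCAO/R + Lrg1-/- libraries lay below the sham + Lrg1-/- mean of 1.10 CPM, which is 1 library at 3.30 CPM with the others at 0. The surgery effects were 1.42 CPM apart, on 7, 8, 18 and 1 UMIs in the sham + WT, sham + Lrg1-/-, MCAO/R + WT and MCAO/R + Lrg1-/- groups, and the difference was not tested.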

How the results depend on the processing

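Counts of genes called out of those tested are given here. Without the filter on low counts they were 6 (pooled, genotype after MCAO/R, 3 in the report), 4 (pooled, surgery in WT, 2), 2 (pooled interaction, 0), 5 (capillary, genotype after MCAO/R, 2), 3 (capillary interaction, 1), 3, 5, 3 and 6 (arterial, genotype after MCAO/R 1, sham 1, surgery in WT 1 and in Lrg1-/- 2), 4 and 2 (venous, surgery in Lrg1-/- 2, interaction 1) and 125 (other cell types, 41). In this unfiltered setting edgeR's quasi-likelihood test gave far smaller p-values. For *Sele* in venous cells after sham the adjusted p was 2.9e-47, against 0.00457 in the main fit. The log2 fold changes were 2.45 and 2.49. Calls added without the filter are not read as results. Plain totals gave 1 and 1 (capillary, both genotype comparisons, 2 each), 0 (capillary interaction) and 2 (arterial sham). DESeq2 gave 1 (capillary sham) and 0 in 3 arterial comparisons (genotype after MCAO/R, sham, surgery in WT). The labels do not say whether equal replicate numbers link mice of different groups. With a replicate block the counts were 0 (pooled sham 4, pooled surgery in WT 2, capillary sham, venous interaction, and the same 3 arterial comparisons), 1 (venous sham 3) and 27 (other cell types). Of the called results, 38 lost their call with the block and 45 kept it.

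With each cell thinned to 1000 UMIs the counts were 0 (capillary sham, the 4 arterial comparisons, venous interaction), 1 (capillary and venous surgery in Lrg1-/-) and 2 (venous surgery in WT, 4). Levels moved, among others, for *Icam1* and *Vcam1* pooled (312 and 134 CPM), *Selp* (capillary 1.17, venous 110, fenestrated 22.8), *Selplg* venous (34.0) and *Vcam1* fenestrated (31.3). *Sele* in arterial cells fell to 0 CPM. Ordinary nearest neighbours gave 2 (pooled sham), 1 (pooled surgery in WT), 5 and 1 (capillary sham and surgery in Lrg1-/-), 5, 3, 4 and 5 (arterial), 1 (arterial interaction, 0) and 0 (venous interaction). They reversed *Vcam1* in capillary cells (genotype after MCAO/R 1.67, surgery in WT -1.83, interaction 3.13), *Ackr1* in capillary cells (surgery in Lrg1-/-, -0.27), and *Sele* (-0.21) and *Mcam* (-0.048) in venous cells (surgery in WT). A resolution of 0.3 gave 1 and 1 (pooled sham, surgery in WT), 0 (capillary surgery in Lrg1-/-), 3, 2 and 3 (arterial), 1, 5 and 0 (venous sham, surgery in Lrg1-/-, interaction), reversed venous *Sele* (surgery in WT, -0.26), and left too few capillary cells for the MCAO/R + WT group.

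A mitochondrial limit of 10% gave 2 in arterial sham, and keeping doublets 2, 0 and 1 (arterial sham, surgery in WT and in Lrg1-/-). The fit over 2 groups gave 1 (capillary, genotype after MCAO/R) and 0, 2, 2 and 0 (arterial). Alternatives chosen after seeing the data follow. Cells with less than 1% haemoglobin UMIs gave 2 (pooled sham), 1 and 0 (capillary sham, interaction) and 1 (arterial surgery in Lrg1-/-). Without both *Xist*-bearing libraries the counts were 1, 4 and 0 (pooled genotype after MCAO/R, surgery in WT and in Lrg1-/-), 0, 0 and 0 (capillary genotype after MCAO/R, surgery in Lrg1-/-, interaction), 0, 3 and 1 (arterial genotype after MCAO/R, sham, surgery in Lrg1-/-), and 0, 1 and 0 (venous genotype after MCAO/R, surgery in Lrg1-/-, interaction), and *Ackr1* between genotypes after MCAO/R reversed in border-associated macrophages (-5.83) and oligodendrocytes (-0.18). Venous cluster 11 alone gave 0 (sham), 4 (surgery in Lrg1-/-) and 0 (interaction) and reversed *Sele* (surgery in WT, -0.49).

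Leaving out 1 library gave, in the order genotype after MCAO/R, sham, surgery in WT, surgery in Lrg1-/- and interaction, 1 to 4, 1 to 4, 1 to 4, 1 to 4 and 0 to 1 calls pooled, 1 to 4, 0 to 2, 2 to 4, 2 to 3 and 0 to 1 in capillary, 0 to 2, 0 to 3, 0 to 2, 0 to 3 and 0 in arterial, and 2 to 5, 3 to 3, 2 to 4, 2 to 4 and 0 to 1 in venous cells, and 29 to 52 in other cell types. Of 42 called endothelial results, 15 kept call and direction without any 1 library, and none reversed. The other alternatives gave 537 values, of which 415 kept call and direction, 114 lost the call and 8 reversed, and 1 of the 42 results kept call and direction under all of them. Of 118 results not called, 56 were called under some alternative. With 2 or 3 mice per group, 2-fold changes were often missed in counts simulated at a set spread.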

Other observations

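Single clusters differed in these genes beyond the named classes. Cluster 8, an endothelial cluster with no class that held 16 and 14 sham cells and 536 and 1414 MCAO/R cells of WT and Lrg1-/- mice, had *Ackr1* at 139 to 260 CPM in Lrg1-/- and 3.99 to 56.4 CPM in WT libraries, and *Mcam* at 55.3 to 118 and 12 to 52.0 CPM. In venous cluster 11, *Vcam1* was at 1167 to 1344 CPM in sham + WT, 772 to 1020 in sham + Lrg1-/-, 582 to 739 in MCAO/R + WT and 442 to 650 CPM in MCAO/R + Lrg1-/- libraries, and *Selp* was at 214 to 370 CPM in sham + WT, 49.4 to 138 in sham + Lrg1-/-, 4.62 to 91.3 in MCAO/R + WT and 42.9 to 127 CPM in MCAO/R + Lrg1-/- libraries. The 2 sham + WT libraries, with 66 cells, thus lay above all others in both genes, while over the whole venous class the groups overlapped in *Selp*. These clusters were defined on the same cells, so the values are a description.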
